A study of Mus musculus with 16 samples.

Results

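The cells described here were 250 crypt cells of the mouse small intestine that held no UMI of Lgr5, Mki67 or Top2a and had the highest share of their UMIs in 8 genes. A UMI (unique molecular identifier) stands for 1 captured mRNA molecule. To be eligible, a cell needed at least 900 UMIs and 0 UMIs of Lgr5, the marker of crypt base stem cells, and of Mki67 and Top2a, markers of cells in division. The 1263 eligible cells were ranked by the summed UMIs of Igfbp4, Slc12a2, Rnf43, Sox4, Fgfr2, Slc1a5, Dmpk and Kif12 divided by all UMIs of the cell, and the 250 highest were taken as members. They were 250 of 1961 cells with at least 900 UMIs and of 2597 cells in all. The 8 genes chose the members, so their levels are described below without a test, and any gene that goes along with them is a description of the chosen cells.

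Crypts were isolated from wild-type (WT) outbred mice and from ROBO Crainbow mice at postnatal day 16, dissociated with trypsin and Collagenase/Dispase, and captured as single cells on the Bio-Rad ddSEQ with a 3′ library kit. ROBO mice carry a mosaic Crainbow transgene in which Cre recombinase under the Villin promoter, active in the intestinal epithelium, switches each recombined clone from an inert fluorescent reporter to human RSPO3 or 1 of 2 PTPRK:RSPO3 fusions. Neither genotype received a treatment, and the cells of all 8 samples of a genotype were deposited as 1 matrix with numbered cell names, so the clone, the animal and the library of a cell were not known. Each genotype was therefore 1 pooled sample, no difference between genotypes or between groups of cells could be tested, and every interval below covers counting error only. The row of mouse Rspo3 held 24 UMIs over all WT cells and 16 over all ROBO cells; the transgenes hold human sequence, so this row does not check the genotype label. No mitochondrial genes were listed, so RNA quality could not be read from them.

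Crypts renew the epithelium from Lgr5-positive stem cells at their base. Daughter cells leave the base, divide as transit-amplifying progenitors and then mature into absorptive enterocytes or into secretory goblet, Paneth, tuft and enteroendocrine cells. Wnt signals, strengthened by R-spondins binding Lgr receptors, hold cells in the crypt state, and Rnf43 and Axin2 are targets of the pathway that feed back to dampen it.

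The WT pool gave 129 members, 20.2% of its 640 eligible cells (95% exact binomial interval 17.1 to 23.5), and the ROBO pool gave 121, 19.4% of 623 (16.4 to 22.8). ROBO cells thus made up 48.4% of the members (42.1 to 54.8) and 49.3% of all eligible cells. When the score was taken after thinning each cell to 900 UMIs, ROBO cells were 38.8% of the 250 cells chosen. Such a score is a whole number of UMIs out of 900, so many cells tie. Tied cells were taken in file order, WT first, so the 38.8% cannot be read as a difference between genotypes or as an effect of depth. Members were shallower than the cells they are set against below. Their median was 1583.5 UMIs per cell (1608 in WT, 1541 in ROBO, range 904 to 5265), against 2302 in the 200 Lgr5-positive cells (at least 1 Lgr5 UMI), 2461.5 in the 498 dividing cells (no Lgr5, at least 1 Mki67 or Top2a UMI) and 1875 in the 1013 other eligible cells. Shares of cells with a UMI are given after the same thinning, which puts them on 1 depth. No cell name occurred in both matrices.

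The score had no gap at the boundary of the members. The highest cell, from ROBO, had 157 rule gene UMIs per 10000 (16 of 1020 UMIs), the member midway down had 33.7, and the last member, from WT, had 20.9 (3 of 1433). The next cell, from ROBO, had the same score of 20.9 from the same counts and was left out only by file order, and the cell after it had 20.9 from 8 of 3827 UMIs. A total of 517 eligible cells, 40.9%, had no UMI of the 8 genes. The plot of score by rank shows this even decline, with both genotypes along its whole length.

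**Figure D1:**
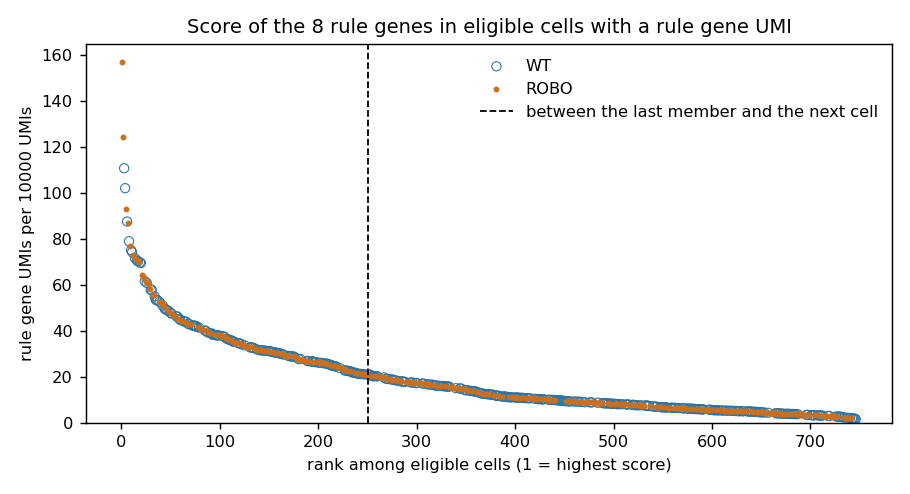
Rule gene UMIs per 10000 UMIs (vertical axis) of each eligible cell with at least 1 such UMI, ordered by rank (horizontal axis). Open circles are WT cells, filled points are ROBO cells, and the dashed line separates the 250 members from the next cell. The score falls from 157 per 10000 at rank 1 to 33.7 midway down the members and 20.9 at the line, with no gap there.

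Slc12a2 carried the score. The gene encodes the sodium-potassium-chloride cotransporter that loads crypt cells with chloride for secretion, and its 814 UMIs were 44.9% of the 8 genes' UMIs in members. It was the highest or tied highest rule gene in 176 members. Its level was 16.8 UMIs per 10000 in members (15.7 to 18.04), 16.996 in WT members and 16.7 in ROBO members. Lgr5-positive cells held nearly the same level, 15.7, while dividing cells held 6.44, other eligible cells 1.62, and the 250 other eligible cells richest in enterocyte genes 0.78. After thinning, 73.2% of members had a Slc12a2 UMI (85.6% before thinning), against 7.2% of the enterocyte-rich cells (13.2% before thinning, median depth 1550) and 3.45% of the 29 immune cells (6.9% before thinning, median depth 2124), which should lack it.

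Igfbp4, which encodes a secreted binding protein for insulin-like growth factors, was second with 336 UMIs. Its level was 6.95 per 10000 in members (6.23 to 7.73), 3.56 in Lgr5-positive cells, 1.82 in dividing cells and 0.68 in other eligible cells. WT members had 6.74 and ROBO members 7.17, a difference well inside the counting intervals of 5.76 to 7.84 and 6.13 to 8.35. Both Igfbp4 and Slc12a2 were found in 126 members. Igfbp4 UMIs were unevenly spread, since 38 of them lay in 4 members that carried fibroblast genes, described below.

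The remaining rule genes were sparser. Rnf43, a ubiquitin ligase that removes Frizzled receptors, had 171 UMIs and 3.54 per 10000, against 2.05 in Lgr5-positive cells. Slc1a5, a neutral amino acid transporter, had 160 UMIs and 3.31 per 10000, against 1.88. Dmpk had 93 UMIs, the transcription factor gene Sox4 89, the kinesin gene Kif12 81, and Fgfr2, a receptor for fibroblast growth factors, 68. For each of these 4 the order was members, Lgr5-positive cells, dividing cells, other eligible cells. None of the 8 genes differed by 1.5-fold between ROBO and WT members, beside 11.9% higher and 12.9% lower over all genes. The summed level of the 8 was 37.6 per 10000 in WT and 37.4 in ROBO members. A typical member was chosen on few molecules: the median was 6 rule gene UMIs per cell (range 2 to 24), 71 members held 2 of the 8 genes, 65 held 3, 62 held 4, and no member held all 8.

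**Figure D2:**
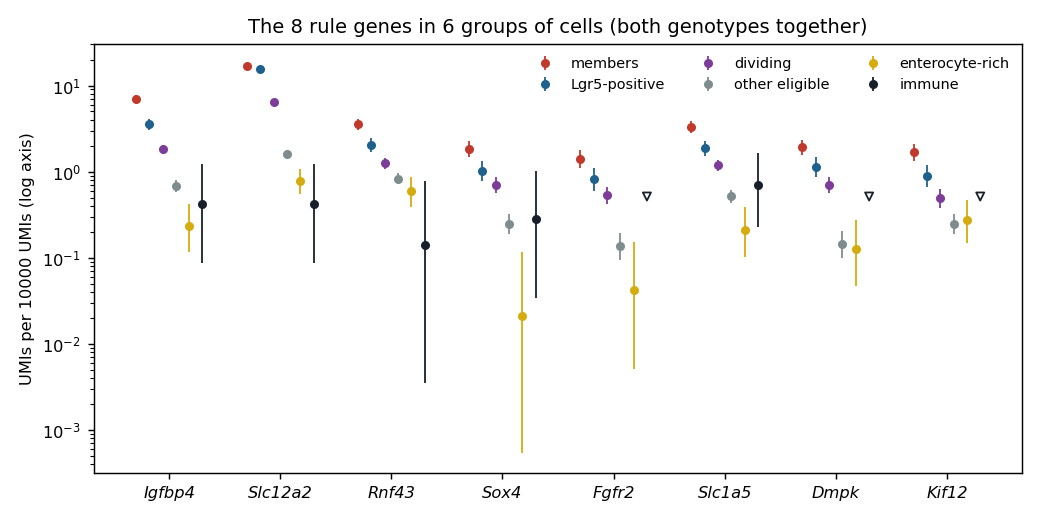
Level of each rule gene (UMIs per 10000 UMIs, log axis) in 6 groups of cells of at least 900 UMIs, both genotypes together. Points are group levels, bars are exact 95% Poisson intervals for counting error, and open triangles are the upper bounds of groups with 0 UMIs. Slc12a2 was nearly level between members (16.8) and Lgr5-positive cells (15.7), and the other 7 genes were highest in members, which they helped to choose.

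The absence of Lgr5 in a member is a weak label at this depth. Lgr5-positive cells held 5.50 Lgr5 UMIs per 10000, and after thinning to 900 UMIs only 51.5% of them kept a Lgr5 UMI (44.4 to 58.6). When all 1961 cells were ranked by the same score without any exclusion, 28.8% of the first 250 had a Lgr5 UMI, 20.4% of the next 250, 9.6% of the next 500 and 3.02% of the rest. After thinning these shares were 15.6%, 10.8%, 5% and 1.25%. High score and Lgr5 detection went together, and only 123 of those first 250 cells were among the members described here. Zero UMIs of Mki67 and Top2a were an equally weak mark, since 17.3% of dividing cells kept a Mki67 UMI after thinning and 46.4% a Top2a UMI.

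A few members carried genes of other cell classes. A cell was counted as marked by a class where it held at least 5 UMIs from at least 3 genes of that class's list. This marked 29 members (17 WT, 12 ROBO), or 11.6%, against 17.5% of Lgr5-positive, 16.3% of dividing and 15.7% of other eligible cells. They were 16 members marked by goblet genes, 11 by Paneth genes, 4 by fibroblast genes, 3 by enteroendocrine genes and 2 by tuft genes, some by more than 1 list, and 0 by the immune or endothelial lists. The 4 fibroblast-marked members, 3 from WT and 1 from ROBO, held 650 of the 651 fibroblast UMIs of the members, 1 Slc12a2 UMI and 5 UMIs of the epithelial genes Epcam, Vil1 and Cdh1 together, and 2 of them stood in the top 50 of the score. The other cells did not share this profile: 227 of 250 members held a UMI of Epcam, the epithelial adhesion molecule, at 21.2 per 10000 against 18.5 in other eligible cells. Without the 4 fibroblast-marked members the Igfbp4 level was 6.28 per 10000 in place of 6.95. Without all 29 marked members the Paneth list summed to 3.84 in place of 18.6, the S phase list to 32.4 in place of 31.2, the Wnt list to 38.2 in place of 37.3, and Id3 was at 6.56 in place of 6.39. The members are therefore called Slc12a2- and Igfbp4-rich cells below. Some values that the marked cells carry are given with and without them, and the ratios of lists between genotypes are given with them only.

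Among eligible cells, members resembled each other beyond the genes that chose them. Lgr5-positive and dividing cells were not eligible, so likeness to those groups was not measured. In a space of 20 principal components built from 2000 variable genes, with the 8 rule genes, Lgr5, Mki67 and Top2a left out, on average 57.3% of a member's 20 nearest eligible neighbours were members. Members were 19.8% of the eligible cells, and other eligible cells had 11.98% member neighbours on average. The share was 68.9% for score ranks 1 to 50 and 43.1% for ranks 201 to 250, and cells just outside, in the next 50 ranks, still had 32.7%. Members without any class mark had 59.0%, the 29 marked members 44.0% and the 4 fibroblast-marked members among them 55%. A high share therefore does not show that a cell is of the same type as most members. Neighbours were mixed by genotype: 51.3% of the neighbours of WT members and 51.1% of those of ROBO members were ROBO cells.

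Against the other eligible cells 1697 of 7362 genes with at least 50 UMIs (23.1%) were at least 1.5-fold higher in members and 1467 (19.9%) at least 1.5-fold lower. The 24 enterocyte genes were all lower, with a median log2 ratio of -3.46 against 0.10 over all genes. Apoa4, an apolipoprotein of fat absorption, had 15.5 UMIs per 10000 in members and 315 in other eligible cells, and the fatty acid binding protein gene Fabp1 had 1.39 and 28.6. Of the list of crypt stem cell genes other than Lgr5, 8 of 11 genes compared were higher and 1, Pdgfa, was lower, with a median of 1.31. Of the Wnt target and feedback list 11 of 17 were higher and 1, Mycn, was lower (median 0.96), and of the chloride secretion list 7 of 12 were higher and 1, the villus chloride exchanger gene Slc26a3, was lower (median 0.70). Since crypt genes chose the cells, nothing is read from these counts against the 23.1% of all genes.

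The single genes that stood highest fell into 2 kinds. The 6 highest ratios, of Col3a1, Dcn, Lgals1, Slpi, C3 and Sparc, came from the 4 fibroblast-marked members alone, and the other 246 members held 0 UMIs of each. Below them stood genes spread over many members. Ascl2, a transcription factor of crypt base cells, was next with a log2 ratio of 2.68 (2.20 to 3.16) from 89 UMIs in 55 members. It was followed by Utrn (2.18), Ifitm3 (2.15), Rgcc (2.09), Clca3b (2.03, in 103 members), Cdca7 (2.01), the nucleoside transporter gene Slc29a1 (1.99), Igsf8 (1.96) and Fam129b (1.94). The 8 lowest were Gip, Sst, Gpx3, Gzma, Rab30, Mfi2, Ccl5 and Mcpt2, with 0 to 5 UMIs in members. They include hormone genes (Gip, Sst) and immune genes (Gzma, Ccl5, Mcpt2).

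Crypt stem cell genes were intermediate in the Slc12a2- and Igfbp4-rich cells. The list without Lgr5 summed to 15.4 UMIs per 10000 (15.3 in WT, 15.5 in ROBO), against 24.4 in Lgr5-positive, 13.9 in dividing and 6.61 in other eligible cells. Members of the list went separate ways. Ascl2 was at 1.84 per 10000 in members and 1.40 in Lgr5-positive cells, a log2 ratio of 0.40 with an interval that spans 0 (-0.06 to 0.86). After thinning, 12.4% of members and 8% of Lgr5-positive cells held an Ascl2 UMI (22% and 25.5% before thinning), against 0.4% of enterocyte-rich cells both ways. Smoc2, a secreted matrix protein gene of the crypt base, showed the reverse with 1.20 against 2.87 per 10000, a log2 ratio of -1.26 (-1.72 to -0.82). Its share of cells after thinning was 8.8% in members and 26% in Lgr5-positive cells (16% and 46.5% before), against 0.8% in enterocyte-rich cells (1.6% before). In all, 6 of the 11 stem genes compared were at least 1.5-fold lower in members than in Lgr5-positive cells (Sfrp5, Gkn3, Aqp4, Smoc2, Rgmb and Lrig1) and none was higher. Over all 4342 genes of that comparison 6.4% were higher and 9.79% lower.

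Wnt target and feedback genes stood as high in members as in Lgr5-positive cells. The list, without Rnf43 and Lgr5, summed to 37.3 per 10000 in members, 36.4 in Lgr5-positive, 28.5 in dividing and 20.6 in other eligible cells. Axin2, a scaffold of the complex that degrades beta-catenin, was at 5.46 in members, 4.37 in Lgr5-positive, 2.74 in dividing and 1.53 in other eligible cells. It was found in 37.6% of members after thinning (54.8% before), against 30.0% of Lgr5-positive cells (59% before) and 7.6% of enterocyte-rich cells (17.2% before). Myc, a driver of growth and biosynthesis, was at 2.34 in members and 1.55 in Lgr5-positive cells, and Sox9 was at 3.27 and 2.91. The receptor gene Lgr4, which binds R-spondins in cells without Lgr5, was at 1.82 and 1.98. Against Lgr5-positive cells 3 of 15 genes were higher, Sp5 (log2 0.98), Tcf7l2 (0.93) and Myc (0.59), and 1 was lower, Cd44 (-0.68), beside 6.4% higher and 9.79% lower over all genes. Against dividing cells 7 of 17 were higher and 0 lower (background 7.75% higher and 14.1% lower of 6514 genes), with Axin2 at 0.99, Sox9 at 1.21, Myc at 1.22 and Ascl2 at 1.30. Ctnnb1, which encodes beta-catenin and is regulated mainly at the protein, was level, at 7.69 in members and 7.49 in other eligible cells.

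The part of the comparison that rests on division was separated from the part that rests on Lgr5 after the values had been seen. Of the 200 Lgr5-positive cells, 122 held no Mki67 or Top2a UMI, and 75 of these also reached the lowest score of the members, so that they differed from members by rule only in having a Lgr5 UMI. In these 75 cells (median 2027 UMIs) Axin2 was at 5.15 per 10000 against 5.46 in members, Ascl2 at 1.27 against 1.84 and the Wnt list at 37.2 against 37.3. The stem list stayed higher in them, at 24.2 against 15.4, and so did Smoc2, at 2.72 against 1.20. Id3 stayed lower, at 3.65 against 6.39. One of the Lgr5-positive cells, from ROBO, was marked by fibroblast genes and held all 173 fibroblast UMIs of these 75 cells.

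Id3 was higher in members than in Lgr5-positive cells by more than 1.5-fold, and Id1 and Id2 were not. Id3, which encodes a helix-loop-helix protein that blocks other transcription factors and is a target of BMP signalling, was at 6.39 UMIs per 10000 in members (5.94 in WT, 6.87 in ROBO), 2.72 in Lgr5-positive, 3.63 in dividing and 3.25 in other eligible cells. Its log2 ratio over Lgr5-positive cells was 1.23 (0.94 to 1.52). After thinning, 41.2% of members held an Id3 UMI (56.8% before) against 22% of Lgr5-positive (37.5% before), 24.0% of enterocyte-rich (35.2% before) and 13.8% of immune cells (20.7% before). The related Id1 was at 3.43 against 2.29 (log2 0.58) and Id2 at 2.07 against 1.46 (0.51). In the 75 Lgr5-positive cells of the same score Id1 was at 3.07 (2.30 to 4.01), an interval that holds the level of the members, and Id2 was at 1.27 (0.80 to 1.93). Of the list of growth factor and BMP receptors and their targets, 4 of 14 genes were higher than in Lgr5-positive cells (Id3, Smad7 at 1.15, Erbb2 at 0.68, Smad6 at 0.59) and 2 were lower (Bmpr1a at -0.74, Insr at -0.68), beside 6.4% higher and 9.79% lower over all genes.

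Further genes above the Lgr5-positive cells are named here because of their values. Msx1, a homeobox gene, had 116 UMIs in 67 members and a log2 ratio of 2.55 (1.88 to 3.28). The transcription factor genes Tbx3 and Maf had ratios of 1.19 (0.60 to 1.80) and 1.15 (0.66 to 1.66), the metal transporter gene Slc30a10 had 1.15 (0.71 to 1.60) and the ephrin gene Efnb1 1.05 (0.38 to 1.74). The same genes were not all high against other cells: Maf was at -0.88 against other eligible cells. In the 75 Lgr5-positive cells of the same score the levels stayed lower, with Msx1 at 0.41 per 10000 against 2.40 in members, Tbx3 at 0.93 against 1.57, Maf at 0.98 against 2.15 and Efnb1 at 0.52 against 1.16. Reg3b, an antimicrobial lectin, was also higher (8.79 against 4.01), but 115 of its 425 UMIs came from 1 WT member.

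**Figure D3:**
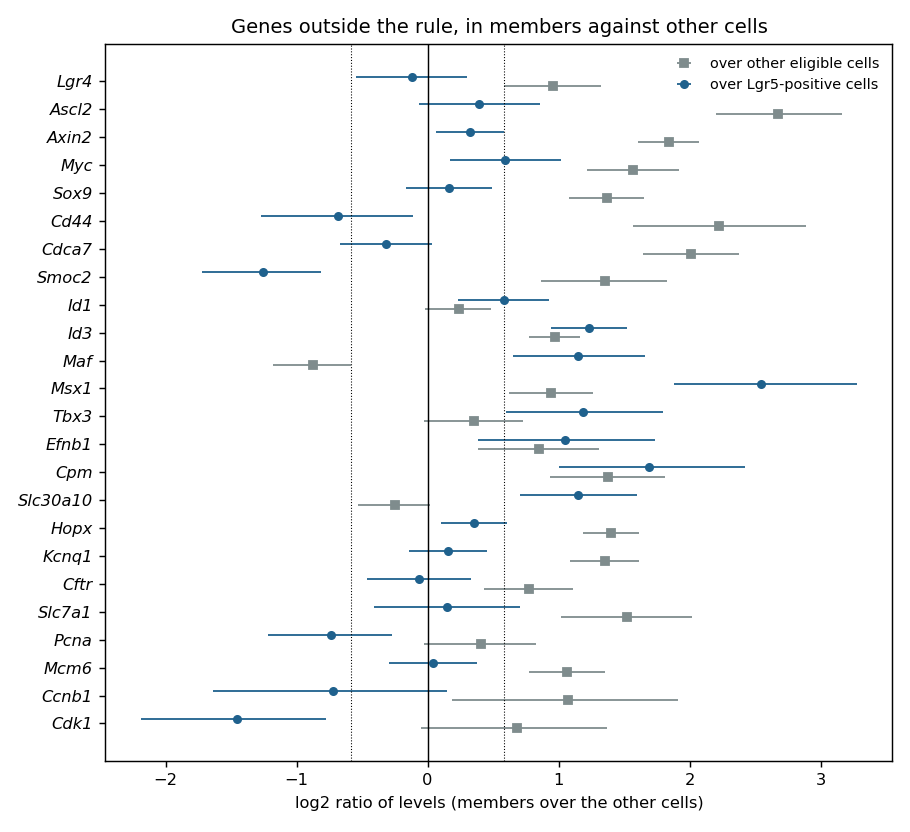
Log2 ratio of the level in members over that in Lgr5-positive cells (circles) and over that in other eligible cells (squares) for genes that the rule did not use. Bars are conditional exact 95% intervals for counting error, the solid line marks equality and the dotted lines 1.5-fold; most were named by list, and Msx1, Tbx3, Maf, Efnb1, Cpm and Slc30a10 for their values. Ascl2, Axin2 and Sox9 were between 0.17 and 0.40 against Lgr5-positive cells and at 1.37 or more against other eligible cells, Smoc2 was at -1.26 and 1.36, and Id3 was above 0 in both.

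DNA replication genes went only partly with the working label of these cells as non-dividing. The S phase list summed to 31.2 UMIs per 10000 in members (29.7 to 32.8), against 38.7 in Lgr5-positive, 37.9 in dividing and 15.3 in other eligible cells. Among Lgr5-positive cells it was 31.3 in the 122 without a Mki67 or Top2a UMI, level with members, and 48.1 in the 78 with one. At 900 UMIs, 83.6% of members held an S phase UMI (92% before thinning), a share like the 83.9% of dividing cells (95.2% before), against 55.5% of other eligible cells (74.3% before). Of 30 S phase genes compared with other eligible cells 24 were higher and 1, E2f8, was lower (median 1.07), beside 23.1% higher and 19.9% lower over all genes. Mcm6, a subunit of the replicative helicase, was at 3.02 in members, 2.93 in Lgr5-positive and 2.76 in dividing cells. Its partner Mcm5 was at 1.53, 1.18 and 1.498. Pcna, the sliding clamp of replication, was lower, at 1.24 against 2.07 and 2.00. Against dividing cells 10 of 35 S phase genes were lower, led by E2f8 (-3.35), Cdc45 (-1.91) and Rrm2 (-1.82), and 1 was higher, Cdca7. Over all genes of that comparison 14.1% were lower and 7.75% higher.

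Genes of G2 and mitosis did follow the rule. Without Mki67 and Top2a the list summed to 25.6 per 10000 in members, 73.1 in dividing, 52.6 in Lgr5-positive and 19.4 in other eligible cells. Against dividing cells 45 of 47 genes were lower and 0 higher (median -1.81), beside 14.1% lower and 7.75% higher over all genes. The 75 Lgr5-positive cells of the same score without Mki67 or Top2a had a sum of 24.5. Against other eligible cells 11 of 29 were higher, among them Cbx5 (1.47), Cdca8 (1.20) and Cdk1 (0.68), and 1 was lower, Hjurp. Over all genes of that comparison 23.1% were higher and 19.9% lower. Cells with a Mki67 or Top2a UMI were left out, so low values of genes expressed together with those 2 follow from the choice of cells. Among members the G2 and mitosis sum was 34.4 in the members below the median depth and 21.6 in those above it, while the S phase sum was 31.3 and 31.2.

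Genes of cell cycle exit and of the G1 phase went in both directions. Of 17 cell cycle exit genes compared with other eligible cells 2 were higher, Rbl1 (1.07) and Trp53 (0.94), and 6 were lower, with Cdkn2b at -3.89, Cdkn1c at -2.43 and Cdkn1a at -0.80, beside 23.1% higher and 19.9% lower over all genes. Against Lgr5-positive cells 1 of 8 was higher, Cdkn1a (0.81), and 0 were lower, with a list median of 0.21. Cdkn1a, the p21 inhibitor of cyclin-dependent kinases, was at 1.41 in members, 1.45 in dividing and 0.80 in Lgr5-positive cells. The list of G1 cyclins and their partners, which also holds Myc, summed to 16.2 in members, 16.1 in Lgr5-positive, 16.1 in dividing and 10.03 in other eligible cells. Ccnd1 was at 2.46, 2.39, 2.31 and 1.02, and Cdk4, its kinase partner, at 4.05, 3.71, 3.60 and 2.05 in the same order. Ccnd2 was lower than in dividing cells, at 3.89 against 4.79 (log2 -0.30, -0.54 to -0.06). Of 11 genes of the list compared with dividing cells 1 was higher, Myc, and 2 were lower, Ccnd3 (-1.17) and Max (-0.96). Over all genes of that comparison 7.75% were higher and 14.1% lower.

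Ribosomal protein genes took a larger share of UMIs in members than in Lgr5-positive, dividing or other eligible cells as a whole, but were nearly as high in the Lgr5-positive cells of the same score. The 79 genes made up 20.3% of all UMIs in members (20.1% in WT, 20.4% in ROBO), 17.1% in Lgr5-positive, 15.1% in dividing, 11.0% in other eligible and 4.21% in enterocyte-rich cells. Of 75 genes compared with other eligible cells 72 were at least 1.5-fold higher and 0 lower, beside 23.1% higher and 19.9% lower over all genes. Against Lgr5-positive cells none reached 1.5-fold, with a median of 0.23, beside 6.4% higher and 9.79% lower over all genes. Against dividing cells 6 were higher and 0 lower, with a median of 0.42. Over all genes of that comparison 7.75% were higher, a share near that of the 6, and 14.1% lower. The 75 Lgr5-positive cells of the same score had 1988 UMIs per 10000 (1967 to 2009), against 2027 in members. The share was higher in deeper cells of each group. In cells under 1600 UMIs the levels were 1890 UMIs per 10000 in members against 1618 in Lgr5-positive, 1367 in dividing and 1019 in other eligible cells, and in cells of at least 1600 UMIs they were 2092, 1719, 1532 and 1124. A share of all UMIs falls where other transcripts, such as those of enterocytes, are abundant, so a larger share and a larger amount per cell cannot be told apart.

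**Figure D4:**
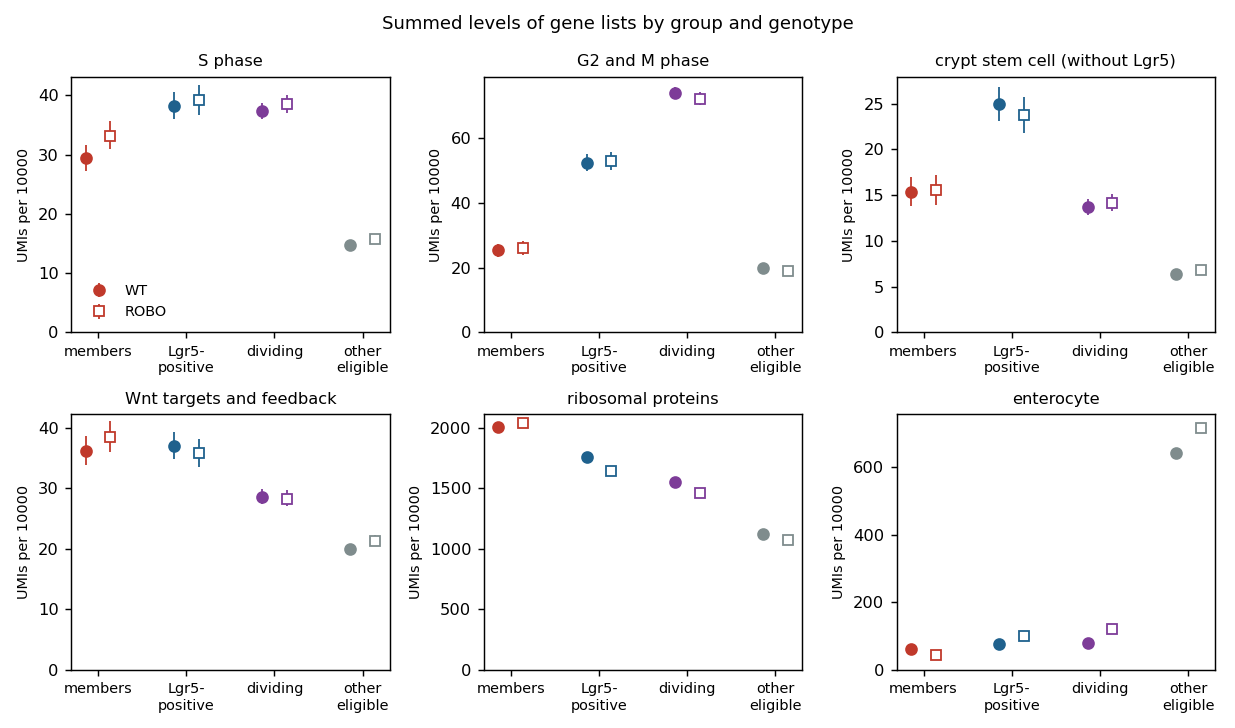
Summed level of 6 gene lists (UMIs per 10000 UMIs, axes from 0) in members, Lgr5-positive, dividing and other eligible cells, with WT as filled circles and ROBO as open squares and bars for exact 95% Poisson intervals of counting error. Rule genes, Lgr5, Mki67 and Top2a are left out. Members were near dividing cells for S phase genes (31.2 against 37.9), far below them for G2 and M genes (25.6 against 73.1) and at 2027 for ribosomal protein genes, against 1707 in Lgr5-positive cells.

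Apart from Slc12a2, the secretory machinery of crypt cells was as high as in the Lgr5-positive cells. Kcnq1 and Kcne3, subunits of a basolateral potassium channel, were at 3.87 and 1.99 per 10000 in members, 3.47 and 2.56 in Lgr5-positive and 1.51 and 0.73 in other eligible cells. The apical chloride channel gene Cftr was at 2.09, 2.18 and 1.22, and the VIP receptor gene Vipr1 at 3.37, 2.41 and 2.18. None of 11 genes of the list differed by 1.5-fold from Lgr5-positive cells, beside 6.4% higher and 9.79% lower over all genes. With so few genes nothing is read from this count. Of 12 compared with dividing cells 1 was higher and 1 lower, beside 7.75% higher and 14.1% lower over all genes. The sum of the list differed little between groups. It was 39.9 in WT and 36.9 in ROBO members, 37.1 and 37.8 in Lgr5-positive, 35.3 and 31.7 in dividing and 35.9 and 33.2 in other eligible cells.

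Genes of amino acid uptake and synthesis went in both directions. Of 19 compared with other eligible cells 3 were higher, the cationic amino acid transporter gene Slc7a1 (1.53) and the synthesis genes Phgdh (1.36) and Shmt2 (1.34). Of the same 19, 9 were lower, led by the villus transporter genes Slc15a1 (-3.88) and Slc6a19 (-2.87), and Slc3a2 was at -0.97. Over all genes of that comparison 23.1% were higher and 19.9% lower. Of 13 compared with Lgr5-positive cells 0 were higher and 1 was lower, Asns (-1.10), with a list median of 0.15, beside 6.4% higher and 9.79% lower over all genes. Of 16 compared with dividing cells 0 were higher and 3 lower, beside 7.75% higher and 14.1% lower over all genes. The lower counts against Lgr5-positive and dividing cells were thus near those of all genes.

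The fate, adhesion and stress lists are read beside the 23.1% of all genes that were higher and the 19.9% that were lower. Of the Notch and lineage list 5 of 11 genes were higher than in other eligible cells, among them Notch1 (1.58), Sox9 (1.37) and the Notch target Hes1 (0.76), and 3 were lower, Neurod1, Klf4 and Dll1. Hes1 was at 3.81 in members and 4.24 in Lgr5-positive cells. Of the Eph and adhesion list 5 of 21 were higher, including the crypt receptor genes Ephb4 (1.65) and Ephb2 (1.18), and 3 were lower, shares near or below those of all genes. Hopx, listed among reserve stem genes, was at 5.83 in members, 4.57 in Lgr5-positive, 3.62 in dividing and 2.21 in other eligible cells, and Clu (9 of its 21 UMIs in 1 member) and Lrig1 were higher than in other eligible cells and lower than in Lgr5-positive cells. Of the immediate-early and stress list 0 of 19 genes were higher and 8 lower than in other eligible cells. Of the epithelial identity factors 6 of 22 were higher and 7 lower, near the shares of all genes, and 7 of 9 genes of the bottom of the villus were lower and 0 higher. The secretory lists were mostly lower: 8 of 10 goblet, 8 of 9 enteroendocrine and 5 of 13 Paneth genes, with 1, 1 and 2 higher. Both tuft genes and all 12 immune genes compared were lower, and all 8 fibroblast genes were higher, the latter from the 4 marked cells. Of 5 nuclear-retained and ribosomal RNAs 1 was higher and 2 lower. Endothelial genes summed to 17 UMIs in members, and none was compared.

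Of 4998 genes with at least 20 UMIs in members 595 (11.9%) were at least 1.5-fold higher and 646 (12.9%) at least 1.5-fold lower in ROBO than in WT members, with a median log2 ratio of -0.00. At counts this low a gene past 1.5-fold can lie within counting error, as Fzd5 did (0.62, -0.11 to 1.37). Of the Wnt list 1 of 17 genes was higher, Fzd5 (40 UMIs in ROBO, 28 in WT), and 1 lower, Ephb2 (20 and 38), shares below those over all genes. The Wnt list summed to 36.2 per 10000 in WT and 38.5 in ROBO members, a log2 ratio of 0.09 (-0.05 to 0.22), and the stem list to 15.3 and 15.5. S phase genes summed to 29.4 and 33.2, a log2 ratio of 0.18 (0.03 to 0.32), with 7 of 27 genes higher and 2 lower. The S phase ratio was 0.04 in Lgr5-positive cells, 0.04 in dividing cells and 0.10 in other eligible cells (0.001 to 0.20), so members were not alone in this direction. G2 and mitosis genes were at 25.3 and 25.9. Lists of other cell types differed more in the same members. The log2 ratio of ROBO over WT was -0.45 (-0.60 to -0.29) for genes of the bottom of the villus, -0.48 (-0.68 to -0.28) for Paneth, -0.64 (-0.87 to -0.41) for goblet and -2.78 (-3.58 to -2.06) for enteroendocrine genes. It was 0.56 (0.33 to 0.79) for fibroblast genes and -0.55 (-0.82 to -0.29) for nuclear-retained and ribosomal RNAs, a list that can follow RNA quality. Reg3b alone held 331 of the 836 WT UMIs and 94 of the 569 ROBO UMIs of the bottom-of-villus list. The 6 genes of that list compared had a median log2 ratio of 0.10, with 0 higher and 2 lower. Over both genotypes, leaving out the 29 marked members took the Paneth sum from 18.6 to 3.84 per 10000 and the goblet sum from 14.3 to 3.07. The enteroendocrine sum went from 3.12 to 0.49 and the fibroblast sum from 13.5 to 0. Most UMIs of these 4 lists thus lay in marked members. Those of the bottom-of-villus list did not, since its sum went only from 29.1 to 28.9. Whether any list of this paragraph had a part in the S phase difference was not tested.

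Axin2 was the Wnt feedback gene with the largest count difference. WT members held 111 UMIs in 63 cells and ROBO members 153 UMIs in 74 cells, or 4.43 and 6.57 per 10000, a log2 ratio of 0.57 (0.21 to 0.94) that stayed below 1.5-fold. The other groups did not share this: Axin2 was at 4.82 in WT and 3.84 in ROBO Lgr5-positive cells. It was at 2.78 and 2.70 in dividing cells and at 1.45 and 1.61 in other eligible cells. Among members Myc was lower in ROBO, with 2.67 in WT and 1.98 in ROBO members (-0.44, -1.01 to 0.13). Ascl2 (1.80 and 1.89), Sox9 (3.15 and 3.39) and Lgr4 (1.76 and 1.89) were close to level in members. None of 12 chloride and 11 Notch genes compared was past 1.5-fold in either direction, beside 11.9% higher and 12.9% lower over all genes. With so few genes nothing is read from these counts. With 1 pool per genotype, the spread between animals was not known for any of these values.

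The genes with the highest and lowest ratios between genotypes rested partly on single cells. Of the 8 highest, Lgals1 (82 UMIs in ROBO, 13 in WT), Igfbp5 (34 and 10) and Dcn (104 and 46) came from the 4 fibroblast-marked members alone, in ROBO from 1 cell, and without them 0 UMIs of the 3 genes remained. The other 5 were spread over cells: Tpd52l2 had 30 UMIs in 23 ROBO members and 11 in 11 WT members (log2 1.55, 0.52 to 2.70), and Dync1i2, Isg20l2, Med9 and Nadk2 had ratios of 1.15 to 1.31. Of the 8 lowest, Chga (-3.78) and Chgb (-2.26), granule proteins of enteroendocrine cells, had 55 of 59 and 31 of 36 WT UMIs in 1 cell, Reg4 (-2.70) had 56 of 63, Agr2 (-2.94) had 43 of 66 and Reg3g (-1.67) 40 of 55. Plp2 was spread over cells, with 33 UMIs in 25 WT members and 8 in 8 ROBO members (-1.94, -3.26 to -0.80), and so was Mylk (31 in 20 and 10 in 10).

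Reg3b combined both. WT members held 331 UMIs in 36 cells, 115 of them in 1 cell, and ROBO members held 94 in 27 cells, at most 11 in 1 cell. The levels were 13.2 and 4.04 per 10000 (log2 -1.71, -2.06 to -1.37). The number of cells with a UMI differed less than the number of UMIs. Members were not alone in this direction: Reg3b was at 4.40 in WT and 3.56 in ROBO Lgr5-positive cells. It was at 10.1 and 7.08 in other eligible cells and at 7.95 and 1.46 in the enterocyte-rich cells among them. Dividing cells went the other way, with 2.90 and 3.75.

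**Figure D5:**
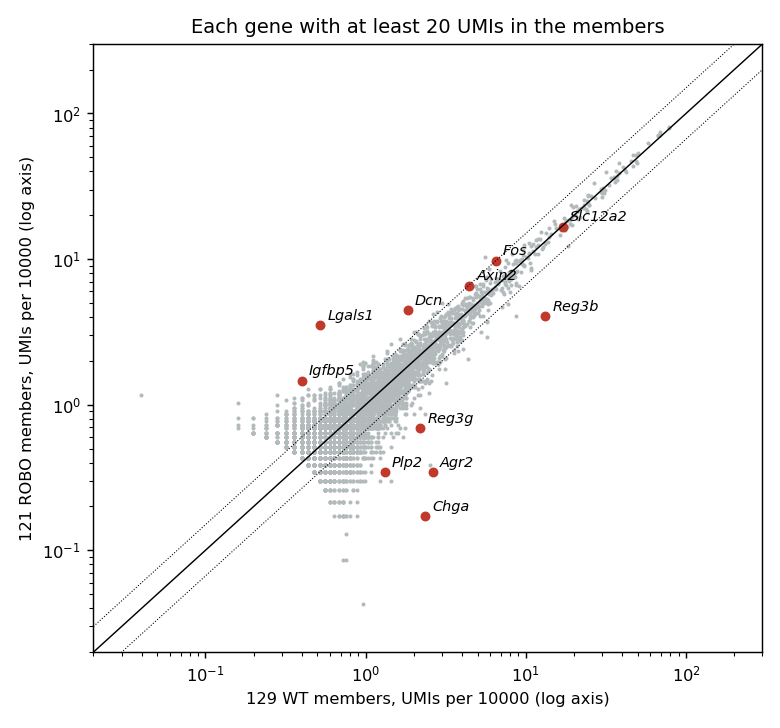
Level of each gene with at least 20 UMIs in the members (grey points; genes at 0 in a genotype are not drawn) in the 129 WT members (horizontal log axis) and the 121 ROBO members (vertical log axis), in UMIs per 10000 UMIs, with named genes in red. The solid line marks equality and the dotted lines 1.5-fold. Slc12a2 lies on the solid line at 16.996 and 16.7, and Axin2 lies just under the upper dotted line at 4.43 and 6.57. Chga, Agr2 and Reg3g lie below the solid line with most of their WT UMIs in 1 cell.

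Mature enterocyte genes ran against the other groups between genotypes. Their sum was 60.5 UMIs per 10000 in WT and 45.1 in ROBO members, a log2 ratio of -0.42 (-0.54 to -0.31), while it was 0.37 in Lgr5-positive, 0.58 in dividing and 0.16 in other eligible cells. The 5 highest members held 37.2% of the WT sum and 26.8% of the ROBO sum, and the median member held 6 UMIs in both genotypes. The direction changed with the choice of members: it was 0.32 at a minimum of 1200 UMIs and 0.38 with the 400 highest cells. Other lists changed direction between groups too. Goblet genes were at -0.64 in members, 0.84 in Lgr5-positive, 1.39 in dividing and -0.11 in other eligible cells. In the same order genes of the bottom of the villus were at -0.45, 0.31, 0.24 and -0.15, and Paneth genes at -0.48, -0.01, 0.43 and -0.76. The -0.45 rested largely on Reg3b, and the median of the 6 bottom-of-villus genes compared in members was 0.10.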

How the data were processed

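The deposited matrices, 1 for WT and 1 for ROBO, hold UMI counts per gene and cell that the authors made from ddSEQ reads in BaseSpace Sequence Hub, pooled by genotype. The submitters' processing notes name mm10 and GRCm38. Counts were used as deposited (2682127 UMIs in 1348 WT cells and 2428435 in 1249 ROBO cells). The members and gene lists were chosen with earlier results of these data known, and the lists other than the rule genes leave out the rule genes, Lgr5, Mki67 and Top2a in comparisons of groups of cells. Levels are summed UMIs per 10000 with exact Poisson intervals. Ratios are log2 ratios of levels with conditional exact intervals, a group at 0 was set at 3 counts, and a gene was called at 1.5-fold, with at least 50 UMIs over both groups of cells or 20 over both genotypes. Shares have exact Clopper-Pearson intervals, all at 95%. Deposited counts carry no library, animal or clone of a cell, so no test was made and no spread between animals is known. Immune cells held at least 5 UMIs of at least 3 immune genes and overlap the other groups. Named genes are the rule genes, genes of 8 lists with at least 50 UMIs in members, the 15 highest and 8 lowest ratios of members over other eligible cells and the 8 highest and 8 lowest between genotypes; others were named for their values. Python 3.11.15, numpy 2.4.6, scipy 1.17.1 and scanpy 1.11.5 were used. Scrublet called 5 of 2597 cells doublets, 0 of them members, too few to show that it worked here, so doublets were not removed. Ratios and intervals were tested on simulated data. Alternatives varied the UMI minimum, the number of members, the rule genes, the exclusions, the weighting, the scaling, the minimum per gene and the neighbour settings. The result of 1 listed gene is not reported here.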

Additional observations from a re-analysis of the deposited data

Results flagged for a closer look

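Among the 636 cells under 900 UMIs, which entered no comparison, 534 held no Lgr5, Mki67 or Top2a UMI, and 166 of these, 31.1% (27.2 to 35.2), reached the lowest score of the members (88 WT, 78 ROBO, median 708 UMIs). They are listed as a signal in cells that were not used. No control for this count exists in the unused cells.

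The enterocyte list had a log2 ratio of ROBO over WT of -0.42 in members, against 0.37 in Lgr5-positive, 0.58 in dividing and 0.16 in other eligible cells. It is listed because the directions differ. The difference was not tested.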

How the results depend on the processing

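Of 182 summary values under the alternatives, 132 moved by less than their counting interval or, for counts, within 1.5 times, 50 moved and 0 turned direction, and of 270 values of single genes and of the enterocyte ratio 241, 22 and 7 did so. Leaving out cells marked by other classes was chosen after seeing the data. The causes were not tested.

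The median log2 ratio of members over other eligible cells, for the Wnt list, was 1.07 at a minimum of 700 UMIs, 0.80 with 150 cells, 0.76 with 400 cells, 0.72 with a thinned score, 0.83 without Igfbp4, 0.83 without Slc12a2, 1.15 with no exclusion, 1.12 when scaled without ribosomal protein genes, Rn45s and the rule genes, 1.11 at a higher minimum per gene, 0.86 at 1 UMI per group and 1.07 without marked cells. For S phase it was 0.97 at 700 UMIs, 1.16 at 1200 UMIs, 1.19 with 400 cells, 0.90 without Slc12a2, 1.26 with no exclusion and 1.23 under that scaling. For the stem list it was 1.58 with 400 cells, 1.04 without Slc12a2, 1.94 with no exclusion, 1.48 under that scaling, 0.46 at the higher minimum and 1.81 at 1 UMI. For enterocyte genes it was -4.22 at 700 UMIs, -3.18 at 1200 UMIs, -4.38 with 150 cells, -2.53 with 400 cells, -2.71 with a thinned score, -2.97 without Igfbp4, -2.72 without Slc12a2, -4.77 with no exclusion, -3.09 with equal weight per cell and -3.29 under that scaling.

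The G2 and mitosis sum per 10000 was 27.2 at 700 UMIs, 39.6 with no exclusion, 27.9 with equal weight and 32.3 under that scaling, and the S phase sum was 29.5 with 400 cells, 29.2 without Slc12a2, 37.9 with no exclusion and 39.4 under that scaling. With a higher minimum per gene 438 genes were higher and 683 lower than in other eligible cells, and with 1 UMI 3923 were higher. Between genotypes 389 were higher with 150 cells, 76 higher and 127 lower at the higher minimum, and 1944 and 2109 with 1 UMI. ROBO cells were 38.8% of members chosen by a thinned score, a share that depends on file order because tied cells were taken WT first.

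The enterocyte ratio of ROBO over WT turned to 0.32 at 1200 UMIs, 0.054 with 150 cells, 0.38 with 400 cells, 0.27 with a thinned score, 0.21 without Igfbp4 and 0.22 without Slc12a2. The Lgals1 ratio turned to -0.029 without Igfbp4. The neighbour share stayed between 51.7% and 57.8%.

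No paired analysis was possible because cells carry no sample number within a genotype, and for the same reason no replicate was left out. With 1 pool per genotype the spread between animals is unknown, and a member rests on a median of 6 rule gene UMIs, so the membership of single cells is uncertain: 73.2% of members were kept at 700 UMIs and 80.4% with a thinned score.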
